A study of Mus musculus with 48 samples.

Results

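The 38 genes described here encode glycoproteins and proteoglycans of the extracellular matrix other than collagens. They were taken by name from the 54752 gene rows of the matrix, and each of the 38 matched 1 row. RNA-seq had been performed on the lymphatic endothelium (LECs) of heart and diaphragm, on the blood endothelium (BECs) of the heart and on cardiomyocytes, with 12 libraries of each population and 48 in all. All mice were Prox1-eGFP knock-in males of the C57BL/6 strain in the labels, made in C57BL/6J embryos by the study's methods, in which eGFP is expressed from the endogenous Prox1 locus together with Prox1. Each population had 4 libraries of control mice (ctrl), whose minipumps delivered saline and bovine serum albumin, 5 of mice that received angiotensin II with the albumin carrier (angII), and 3 of mice that received angiotensin II and VEGFCc156s (angII+VEGFC), a VEGFC variant that acts on VEGFR3. Tissue was taken 5 to 6 weeks after implantation, and the labels give the mice an age of 8 to 16 months. LECs were sorted as live cells (without DAPI) that lacked CD45.2 and carried CD31 and eGFP, and BECs as the cells of the same gate without eGFP. Cardiomyocytes were pelleted from the digested heart at low speed and were not sorted.

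Small leucine-rich proteoglycans, such as decorin and lumican, bind collagen fibrils and regulate their assembly. Fibrillins, elastin, fibulins, emilins and microfibril-associated proteins build elastic fibres, through which lymphatic capillaries are anchored to the surrounding matrix, and latent TGF-beta binding proteins hold TGF-beta in these fibres in an inactive form. Matricellular proteins, such as periostin, SPARC and the thrombospondins, have little structural role and modulate the contact of cells with the matrix. In the pressure-loaded heart most of these genes are known as products of activated fibroblasts, and endothelial cells make a subset of them for their basement membrane.

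The populations carried the markers of their labels. The sum of 6 lymphatic markers was 16281 to 29899 TPM in the heart LECs and 20069 to 40272 TPM in the diaphragm LECs, against 208 to 672 TPM in the BECs. That of 6 blood endothelial markers was 14406 to 23247 TPM in the BECs, and that of the cardiomyocyte markers 6951 to 19112 TPM in the cardiomyocytes. TPM, a library's transcripts scaled to a fixed total, is a share of the transcripts of a library corrected for transcript length, so levels of different genes can be compared, but the sequencing depth behind a value is unknown. The genes at 1 TPM or more numbered 16131 to 25896 in the heart LECs, 12924 to 23691 in the diaphragm LECs, 15076 to 21913 in the BECs and 13020 to 19306 in the cardiomyocytes. The cardiomyocyte preparations held other cells: the sum of 7 fibroblast markers was 317 to 893 TPM and that of 8 macrophage markers 650.3 to 2239 TPM, with none of the 15 at 0 in any cardiomyocyte library. In the same libraries the blood endothelial markers summed to 2185 to 3882 TPM and the pericyte and smooth muscle markers to 1018 to 2138 TPM. The platelet and erythroid markers summed to 3886 to 11922 TPM. In such bulk samples, fewer cells of a type and less RNA per cell cannot be told apart.

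The 38 genes held 0.548 to 0.952% of the TPM of a heart LEC library, 0.418 to 0.752% of a diaphragm LEC library, 0.690 to 1.16% of a BEC library and 0.540 to 1.76% of a cardiomyocyte library, and between 31 and 37 of them reached 1 TPM in each library. The order of the genes differed between the populations, as the heat map of all libraries shows. In the heart LECs the highest was Ltbp4, a latent TGF-beta binding protein that is also required for elastic fibre assembly, at 1999.8 ± 496 TPM (mean ± SD, n = 12). Decorin (Dcn) followed at 978 ± 262 TPM, then Sparc at 838 ± 535 TPM, periostin (Postn) at 691 ± 298 TPM and Prelp at 576 ± 126 TPM, each within 1 SD of its neighbour in this order over all treatments. The place of Sparc differed by treatment, with means of 479 TPM in ctrl, 1319 TPM under angII and 515 TPM in angII+VEGFC, and in ctrl it stood below Postn at 731 TPM and Prelp at 601 TPM. In the diaphragm LECs Ltbp4 was again first at 2798 ± 629 TPM, and Prelp, a proteoglycan that binds basement membrane and collagen, came next at 849 ± 148 TPM. The next 3 were Fbln2 at 313 ± 47.4 TPM, Fbln5 at 291 ± 61.4 TPM and Dcn at 272 ± 213 TPM, which did not differ beyond their spread.

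In the BECs Sparc, a collagen-binding matricellular protein, was first at 3761 ± 729.5 TPM, above all other members by more than its SD. Its relative Sparcl1 at 1323 ± 111 TPM and Ltbp4 at 1304 ± 174 TPM were level with each other, and Dcn at 889 ± 861 TPM and Fbln2 at 341 ± 89.5 TPM completed the first 5. The BEC libraries of mice 1, 2 and 3, whose fibroblast marker sums were 714, 557 and 512 TPM, held 1757 to 3024 TPM of Dcn, and the mean of the other 9 was 446 ± 112 TPM. In the cardiomyocyte preparations Sparc at 2492 ± 1204 TPM and Dcn at 2374 ± 466 TPM came first over all treatments, and Bgn at 672 ± 299.8 TPM, Mfap5 at 562 ± 394 TPM and Postn at 511 ± 379.7 TPM followed. This order differed in the ctrl libraries, where the means were 1965 TPM for Dcn, 1244 for Sparc, 432 for Ltbp4, 404 for Sparcl1 and 337 for Bgn, with Mfap5 at 178 and Postn at 153. Fibrillin 2 (Fbn2), a microfibril component of developing tissue, was the lowest, with 0.0168, 0.322 and 1.04 TPM as the lowest, median and highest heart LEC library. It fell short of the filter, 1 TPM in at least 3 libraries, in every population and was the 1 member not tested, which left 37.

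**Figure D1:**
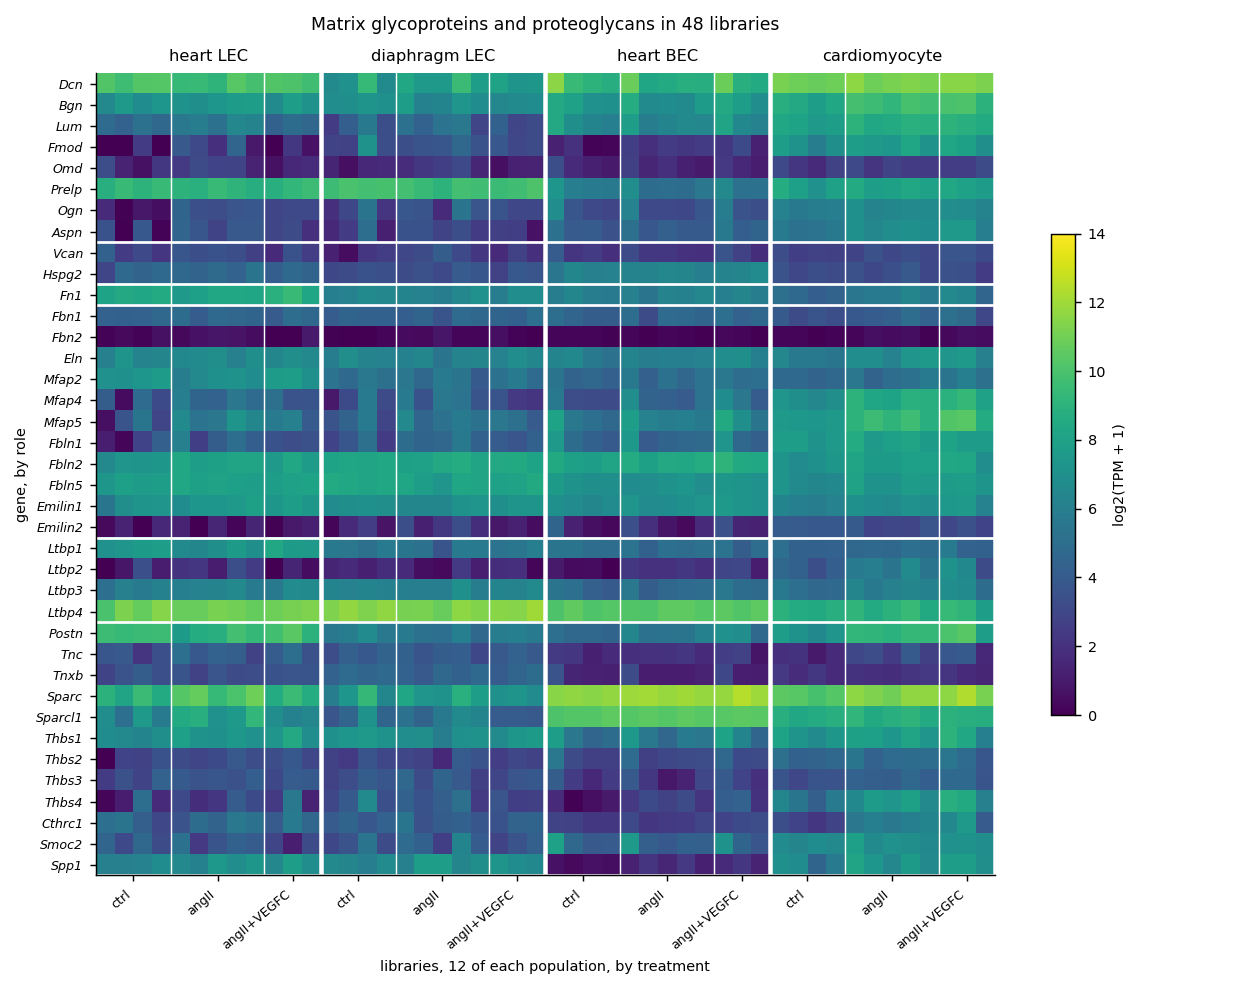
Level of the 38 genes in the 48 libraries as log2(TPM + 1). Rows are genes grouped by role and columns are libraries by population and treatment, and a brighter colour is a higher level. Ltbp4 is bright in all endothelial libraries, Sparc and Sparcl1 are brightest in the BECs, and Postn, Fn1 and Prelp are brighter in heart LECs than in BECs.

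Asporin (Aspn), osteomodulin (Omd) and osteoglycin (Ogn), which code for 3 small leucine-rich proteoglycans, lie next to each other on the plus strand of chromosome 13 of GRCm38, within 80059 bases. In the GENCODE annotation the genes span 49544443 to 49567565 (Aspn), 49582462 to 49592822 (Omd) and 49608046 to 49624501 (Ogn). They are shown because Ogn was the member that passed the test in heart LECs and Aspn 1 of those in the cardiomyocytes, whereas Omd passed in no treatment contrast. The 250 bases before the RefSeq start of each (GRCm38.p6, plus strand, chr13:49544193-49544442 for Aspn, chr13:49582212-49582461 for Omd and chr13:49607765-49608014 for Ogn) follow, with each match of TATAAA, on either strand, in capitals.
Aspn: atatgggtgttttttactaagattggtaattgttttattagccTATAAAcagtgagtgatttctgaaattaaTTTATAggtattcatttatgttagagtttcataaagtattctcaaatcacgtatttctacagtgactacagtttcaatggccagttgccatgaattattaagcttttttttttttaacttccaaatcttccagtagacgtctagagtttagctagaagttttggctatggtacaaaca
Omd: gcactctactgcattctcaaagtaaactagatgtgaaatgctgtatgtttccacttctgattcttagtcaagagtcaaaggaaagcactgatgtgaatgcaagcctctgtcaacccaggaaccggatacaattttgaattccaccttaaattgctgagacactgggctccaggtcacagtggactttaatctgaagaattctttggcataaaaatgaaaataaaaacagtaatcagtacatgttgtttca
Ogn: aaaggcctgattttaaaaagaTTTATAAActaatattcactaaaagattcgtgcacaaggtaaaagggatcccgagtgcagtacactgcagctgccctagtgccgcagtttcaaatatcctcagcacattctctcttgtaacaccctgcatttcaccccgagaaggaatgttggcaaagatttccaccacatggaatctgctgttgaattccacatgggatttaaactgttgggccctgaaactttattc
Aspn held 2 matches, which began 207 and 178 bases before the start. Ogn held 2 that overlapped, 229 and 227 bases before it, and Omd held 0. Of the 32851 RefSeq promoter entries of this length, 12.4% held the motif. Of the 27 members with a promoter in the table, 6 held it in at least 1 entry (Aspn, Ogn, Postn, Spp1, Thbs2 and Tnc). The 27 members had 37 entries, so the counts by member and the shares by entry have different units, and enrichment was not tested. Of the other motifs searched, on both strands and counted in the same way, GGAATG was in 4 of the 27 (12.6% of all entries), TGANTCA in 1 (6.75%), CAGAC in 17 (42.2%) and GTCTAGAC in 0 (0.167%).

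The endothelium of the heart differed in its matrix genes by lineage. Against BECs, heart LECs had higher levels of 14 of 37 members and lower levels of 9 (adjusted p under 0.05, limma over all genes). Of all genes tested, 13.0% were called higher and 10.0% lower, and the median log2 difference was 0.31 for the members and 0.20 for all genes. The matricellular genes held 7 of the 14. Spp1, which encodes the integrin ligand osteopontin, had 67.0, 105 and 233 TPM as its lowest, median and highest heart LEC library and 0.276, 1.49 and 4.04 TPM in the BECs. The groups did not overlap, and the log2 difference was 5.42 (SE 0.19, adjusted p = 2.13e-17). Postn, an organizer of collagen that supports cell adhesion, had 199.6, 695 and 1371 TPM in heart LECs and 22.2, 38.9 and 133 TPM in BECs, with a log2 difference of 3.77 (SE 0.27, adjusted p = 3.20e-11), and was higher in the LECs of 12 of 12 mice.

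Prelp differed by 3.37 (SE 0.22, adjusted p = 3.77e-12) and was the 1 small leucine-rich proteoglycan higher in heart LECs. Of the latent TGF-beta binding proteins, Ltbp1 (2.32), Ltbp3 (1.21) and Ltbp4 (0.58) were higher in log2 terms and Ltbp2 did not pass (-0.08). Fibronectin (Fn1), the ligand of integrin alpha9 in lymphatic valves, had 182, 318 and 700.2 TPM in heart LECs and 41.5, 65.3 and 89.5 TPM in BECs, and its log2 difference was 2.30. Mfap2, a microfibril-associated protein that binds TGF-beta, differed by 2.11 and Fbln5, which links elastic fibres to integrins, by 0.79. The remaining members called higher were Cthrc1, Tnc, Tnxb, Thbs1 and Thbs3, with log2 differences between 1.05 and 1.96.

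In the opposite direction, Sparcl1 had 33.9, 127 and 621 TPM in heart LECs and 1094, 1311 and 1477 TPM in BECs, a log2 difference of -3.18 (SE 0.28, adjusted p = 1.39e-09). Sparc differed by -2.40 (SE 0.20, adjusted p = 3.54e-10) and perlecan (Hspg2), the large heparan sulfate proteoglycan of basement membranes, by -1.72 (SE 0.18, adjusted p = 2.54e-08). Both were lower in the LECs of 12 of 12 mice. Fbln1 (-1.81), Lum (-1.58), Aspn (-1.48), Smoc2 (-1.48) and Ogn (-1.48) were lower as well, and Fbln2 by -0.66. Ogn was lower in 8 of 12 mice. For 5 of these genes the 3 BEC libraries with a high fibroblast sum, those of mice 1, 2 and 3, stood apart from the other 9 BEC libraries, whose fibroblast sums were 96.4 to 269 TPM. They held 156 to 182 TPM of Fbln1 against 14.5 to 30.4 TPM, 144 to 258 TPM of Smoc2 against 11.9 to 24.6 TPM and 217 to 345 TPM of Lum against 57.1 to 125 TPM. They held 59.7 to 116 TPM of Ogn against 6.59 to 12.6 TPM and 35.1 to 49.9 TPM of Aspn against 10.2 to 22.2 TPM. Without these 3 libraries, a setting added after the data had been seen, Fbln1 (-1.05, adjusted p = 0.106), Smoc2 (-0.64, adjusted p = 0.177) and Ogn (-0.75, adjusted p = 0.126) were no longer called, Lum (-1.14, adjusted p = 2.62e-04) and Aspn (-1.19, adjusted p = 0.0338) were, and 17 members were higher and 6 lower, with Dcn (1.12, adjusted p = 8.65e-07), Vcan (0.81, adjusted p = 0.0162) and Eln (0.48, adjusted p = 0.0342) added to the higher ones. With the fibroblast sum as a covariate 16 members were higher and 4 lower, and Fbln1 (-0.12, adjusted p = 0.851), Smoc2 (0.10, adjusted p = 0.86), Ogn (-0.06, adjusted p = 0.928), Aspn (-0.65, adjusted p = 0.262) and Fbln2 (-0.44, adjusted p = 0.0563) were not called. In the ctrl libraries alone, 4 of each population, 7 were higher and 7 lower. The shares of all genes called in these alternative fits are not given, so the changed counts cannot be read as particular to the members.

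**Figure D2:**
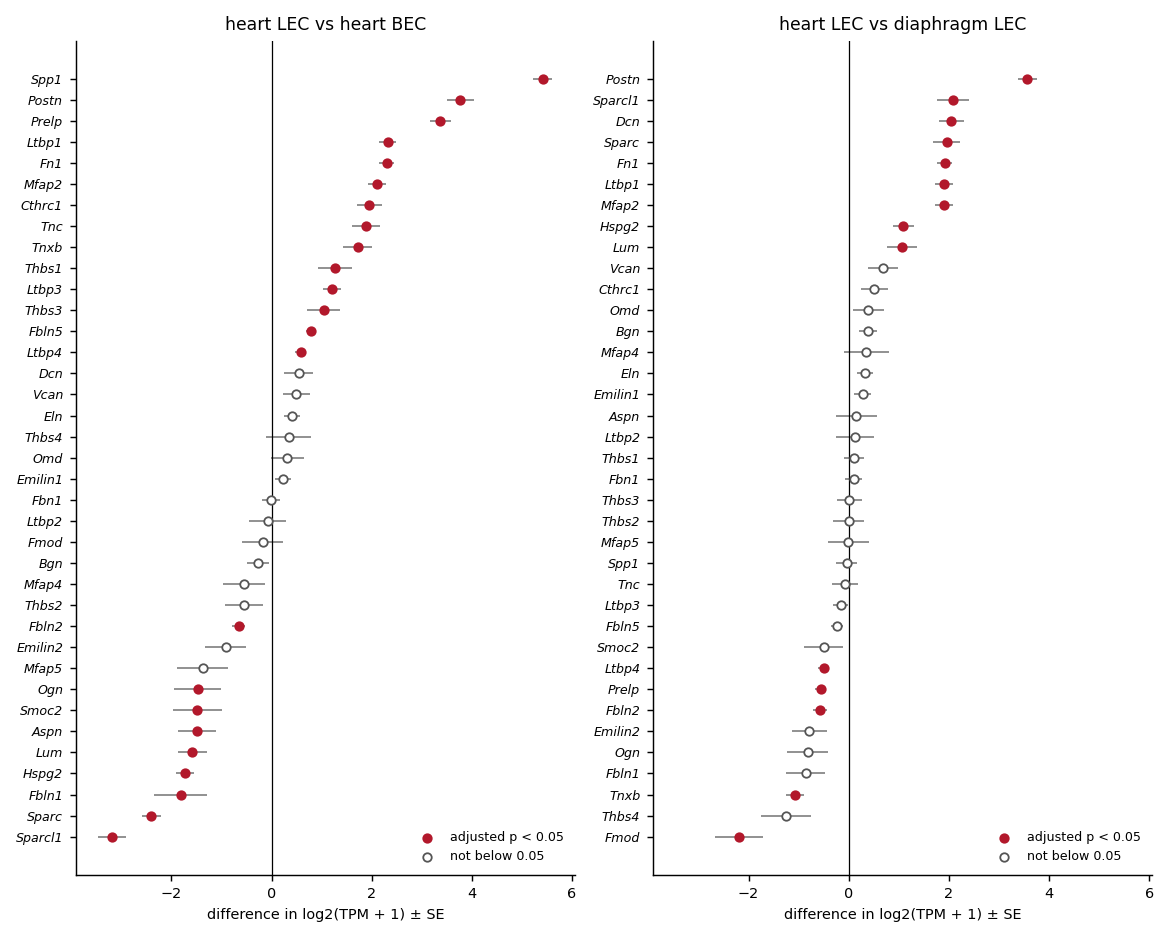
Difference in log2(TPM + 1) of the 37 tested members between heart LECs and heart BECs (left) and between heart and diaphragm LECs (right). Points are model estimates over 24 libraries, bars are the standard error, and filled red points have an adjusted p below 0.05. Postn lies at the upper end of both panels, and Sparc and Sparcl1 are lower in heart LECs than in BECs but higher than in diaphragm LECs.

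Between the lymphatic endothelium of the heart and of the diaphragm, 9 of 37 members were higher in the heart and 5 lower, where all genes gave 1.79% and 1.39%. The medians were 0.11 for members and 0.11 for all genes in log2 terms. Postn had 24.7, 52.6 and 106 TPM as its lowest, median and highest diaphragm LEC library, all below every heart LEC library, and a log2 difference of 3.57 (SE 0.19, adjusted p = 9.83e-13). Fn1 (1.92), Ltbp1 (1.91) and Mfap2 (1.90) were also higher in the heart of 11 of 11 mice with both libraries. Dcn differed by 2.05 (SE 0.25, adjusted p = 3.80e-06), Sparcl1 by 2.08 (SE 0.31, adjusted p = 7.70e-05) and Sparc by 1.96 (SE 0.27, adjusted p = 1.92e-05), and Hspg2 (1.09) and Lum (1.07) completed the 9. The sum of 6 blood endothelial markers was 1731 to 8635 TPM in the heart LECs and 1609 to 2439.8 TPM in the diaphragm LECs, and that of the fibroblast markers 47.0 to 187 and 15.0 to 194 TPM, with Tcf21 at 0 in 5 and Medag in 1 of the diaphragm libraries. Their part in these differences was not tested beyond the fit with the fibroblast sum as a covariate, in which 9 members were called, 5 higher and 4 lower. The share of all genes called in that fit is not given.

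Fibromodulin (Fmod), a proteoglycan of tendon and fascia, had 0, 1.87 and 23.0 TPM in heart LECs and 5.89, 10.3 and 138 TPM in diaphragm LECs, a log2 difference of -2.19 (SE 0.48, adjusted p = 0.00628). Tenascin X (Tnxb), Fbln2, Prelp and Ltbp4 were lower in the heart by 1.07, 0.57, 0.56 and 0.50 in log2 terms, and Tnxb, Prelp and Ltbp4 were so in 11 of 11 mice. The highest Fmod value, 138 TPM, came from the diaphragm of ctrl mouse 9, whose library had the highest value of its group for 22 of 37 members. In the ctrl libraries alone 6 members were called, 5 higher and 1 lower, and the share of all genes called in that fit is not given.

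Against heart BECs the cardiomyocyte preparations had 24 of 37 members higher and 7 lower. Among all genes 11.0% were higher and 65.2% lower, and the medians were 1.49 for members and -0.61 for all genes. All 8 small leucine-rich proteoglycans were higher, from 0.88 for Omd to 5.59 for Fmod, and so were Spp1 (5.59), Thbs4 (4.49), Ltbp2 (3.61), Mfap4 (3.36) and Postn (3.05). Hspg2 (-2.97), Sparcl1 (-1.58), Ltbp4 (-1.50) and Fbln2 (-0.77) had the largest differences in the other direction. With quantile normalization the split was 30 higher and 4 lower, and with the fibroblast sum as a covariate 15 higher and 10 lower. The shares of all genes called in these 2 fits are not given, so the shifts cannot be read as particular to the members. The cardiomyocyte libraries were isolated another way and sequenced in their own set, so the population cannot be told apart from either.

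The core components of the elastic fibre did not pass the test in the main fit of any comparison. Several alternative settings called them, pairing by mouse among them. Fibrillin 1 (Fbn1), the main protein of microfibrils, and Eln were the tested members called in no main fit of populations or treatments. The lowest, median and highest Fbn1 values were 15.2, 23.0 and 30.9 TPM in the heart LECs, 11.3, 20.6 and 33.8 TPM in the diaphragm LECs, 8.68, 23.9 and 34.0 TPM in the BECs and 7.00, 15.3 and 34.7 TPM in the cardiomyocyte preparations. Those of Eln were 68.1, 92.6 and 153 TPM, 40.2, 75.8 and 121 TPM, 37.2, 69.8 and 125 TPM and 42.3, 101 and 191 TPM in the same order. All 4 populations overlapped for both genes. Within the cardiomyocyte preparations Fbn1 had 8.72, 9.30, 11.2 and 14.6 TPM in ctrl, 13.5, 16.0, 18.6, 20.5 and 31.0 TPM under angII and 7.00, 28.1 and 34.7 TPM in angII+VEGFC. Eln had 42.3, 49.1, 50.3 and 88.1 TPM in ctrl, 73.8, 114, 117, 157 and 187 TPM under angII and 67.1, 159 and 191 TPM in angII+VEGFC. Without angII+VEGFC mouse 8 both were called against ctrl, with log2 differences of 1.48 (adjusted p = 0.00847) for Fbn1 and 1.62 (adjusted p = 0.0125) for Eln. The smallest adjusted p were those of Fbn1 between cardiomyocytes and BECs, with a log2 difference of -0.48 (SE 0.23, adjusted p = 0.0577), and of Eln between heart LECs and BECs, with 0.41 (SE 0.15, adjusted p = 0.0513). These calls turned on the settings. With libraries paired by mouse, Eln was higher than in BECs in heart LECs, by 0.41 (adjusted p = 0.0275), and in cardiomyocytes, by 0.40 (adjusted p = 0.0218). In that fit Fbn1 was lower in cardiomyocytes than in BECs, with a log2 difference of -0.48 (adjusted p = 0.0295). With quantile normalization Eln was higher in cardiomyocytes than in BECs by 1.18 (adjusted p = 1.73e-06). With the fibroblast sum as a covariate Fbn1 was lower in cardiomyocytes than in BECs by a log2 difference of -1.17 (adjusted p = 1.55e-04), and in the ctrl libraries alone by -0.93 (adjusted p = 0.00289). Without the 3 BEC libraries of high fibroblast sum Eln was higher than in BECs in the heart LECs, by 0.48 (adjusted p = 0.0342), and in the cardiomyocytes, by 0.48 (adjusted p = 0.0427). With the number of detected genes as a covariate Eln was higher in the cardiomyocytes under angII than in ctrl by 1.32 (adjusted p = 0.0147).

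The treatment contrasts asked whether angiotensin II altered the matrix genes and whether VEGFCc156s altered them further. Contrasts within a population share libraries, so they are given side by side and not compared with each other. The most members passed in the cardiomyocyte preparations, where angII raised Mfap4, Cthrc1 and Mfap5 over ctrl. These were 3 of 37 members, beside 0.0892% of all genes. Mfap4, a microfibril protein that binds integrins, had 87.8, 120.4, 123 and 158 TPM in the ctrl libraries and 275, 312, 444, 469 and 536 TPM under angII. Cthrc1, a secreted protein of activated fibroblasts, had 3.66, 5.94, 6.36 and 9.27 TPM in ctrl and 45.2, 48.1, 64.1, 65.5 and 78.3 TPM under angII. Mfap5, which binds fibrillin microfibrils, had 164, 177, 182 and 190.2 TPM in ctrl and 457, 525, 558, 785 and 803 TPM under angII. All 5 angII libraries lay above all 4 ctrl libraries for each of the 3 genes. The log2 differences were 1.76 (SE 0.27, adjusted p = 0.032) for Mfap4, 3.07 (SE 0.50, adjusted p = 0.042) for Cthrc1 and 1.72 (SE 0.30, adjusted p = 0.046) for Mfap5.

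Most other members lay above 0 in this contrast without passing the adjusted threshold. The log2 difference was above 0 for 36 of 37 members and for 68.3% of all genes, with medians of 0.72 for members and 0.12 for all genes. For 16 members the groups had no overlap with angII higher, where 5.10% of all genes had none. At an unadjusted p under 0.05, 21 were higher and 1 lower, beside 8.00% and 1.85% of all genes. By role, the higher ones were 4 of 8 small leucine-rich proteoglycans, 7 of 10 elastic fibre genes, 2 of 4 latent TGF-beta binding proteins, 7 of 12 matricellular genes and Fn1, and neither large proteoglycan. Postn had 91.7, 143, 159 and 219 TPM in ctrl and 488, 565, 617, 638 and 646 TPM under angII, with a log2 difference of 2.00 (SE 0.41, adjusted p = 0.0812). Biglycan (Bgn), a proteoglycan that binds collagen and growth factors, had 229.5, 324, 348 and 446 TPM in ctrl and 589, 763, 845, 932 and 979.7 TPM under angII, with a log2 difference of 1.33 (SE 0.25, adjusted p = 0.0641). Dcn, the most abundant small leucine-rich proteoglycan here, overlapped between the groups, with 1718, 1906, 1919.8 and 2315 TPM in ctrl and 1924, 2288, 2362, 2614 and 3182 TPM under angII. Its log2 difference was 0.35 (SE 0.18, adjusted p = 0.56), and that of Hspg2 0.07. The 1 member below 0 was Emilin2, with 13.7, 13.7, 15.1 and 15.7 TPM in ctrl and 5.95, 6.67, 6.89, 12.1 and 14.6 TPM under angII, and a log2 difference of -0.60 (SE 0.23, adjusted p = 0.387).

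**Figure D3:**
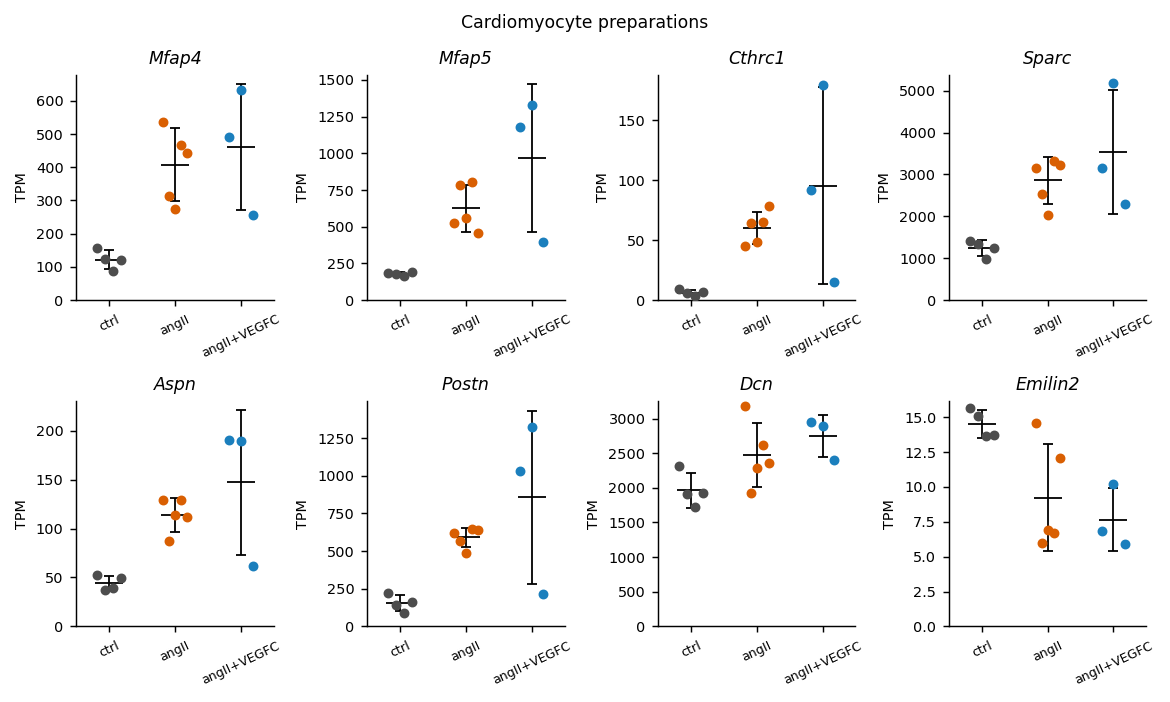
TPM of 8 members in the cardiomyocyte preparations by treatment. Each point is a library, and the bars give the mean and SD of 4 ctrl, 5 angII and 3 angII+VEGFC libraries. For Mfap4, Mfap5, Cthrc1, Sparc, Aspn and Postn every angII library lies above every ctrl library, and the angII+VEGFC library of mouse 8 is the lowest of its 3 in every panel.

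In the angII+VEGFC group 5 members were higher than in ctrl, beside 0.663% of all genes called. Mfap5 had 394, 1178 and 1333 TPM in the 3 libraries and a log2 difference of 2.32 (SE 0.34, adjusted p = 0.0178). Mfap4 had 257, 492 and 633 TPM and Cthrc1 15.5, 91.6 and 179.6 TPM, with log2 differences of 1.77 (SE 0.31, adjusted p = 0.0264) and 3.24 (SE 0.58, adjusted p = 0.0298). The difference of Cthrc1 was 2.52 without angII+VEGFC mouse 6 and 4.17 without mouse 8. The other members called were Sparc and Aspn. Sparc had 974, 1251, 1329.5 and 1423 TPM in ctrl and 2299, 3159 and 5176 TPM here, a log2 difference of 1.38 (SE 0.27, adjusted p = 0.0386). Aspn, of the chromosome 13 neighbours, had 37.3, 38.9, 49.0 and 52.2 TPM in ctrl and 61.8, 189 and 191 TPM here, a log2 difference of 1.60 (SE 0.33, adjusted p = 0.0424). Its neighbour Ogn had 50.1, 60.7, 63.2 and 72.3 TPM in ctrl and 75.4, 106 and 115 TPM (0.65), whereas Omd had 2.15, 3.72, 5.66 and 7.65 and 4.74, 4.83 and 8.26 TPM (0.22). At an unadjusted p under 0.05, 23 members were higher and 1 lower, beside 8.15% and 4.70% of all genes, and 11 did not overlap with the angII+VEGFC libraries higher, where 9.19% of all genes did not.

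The library of angII+VEGFC mouse 8 held the lowest value of its group for 36 of the 37 members that reached 1 TPM in the group. Its fibroblast marker sum was 418 TPM against 893 and 851 TPM in the other 2 libraries, and its fibrillar collagen sum 513 against 2586 and 3090 TPM. Without it 22 members were called against ctrl, and without any of ctrl mice 1, 5 and 9 and angII+VEGFC mice 2 and 6 the count was 0, with 1 without ctrl mouse 11. The share of all genes called in these fits is not given, so the 22 cannot be read as particular to the members. For angII against ctrl the count was 0 without any of ctrl mice 1, 5, 9 and 11 and angII mice 3, 15 and 18, 1 without angII mouse 12 and 2 without angII mouse 14. Between angII+VEGFC and angII 0 of 37 members were called, beside 0% of all genes, and 0 had an unadjusted p under 0.05, beside 2.41%. The smallest p was that of Mfap5, with a log2 difference of 0.60 (SE 0.34, adjusted p = 1) and a 95% interval of -0.13 to 1.34. The 95% intervals for Cthrc1, -1.07 to 1.40, and Postn, -0.84 to 1.20, reached beyond 0 on both sides.

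Markers of other cells moved with these members. The sum of the 7 fibroblast markers was 317 to 388 TPM in the ctrl, 532 to 758 TPM in the angII and 418 to 893 TPM in the angII+VEGFC cardiomyocyte libraries, and that of the 8 macrophage markers 650.3 to 849, 1049.6 to 1901 and 1024 to 2239 TPM. Every library of both treated groups lay above every ctrl library for both sums. A fit with either sum as a covariate therefore cannot reliably separate it from treatment, and the part of these cells was not tested. With the fibroblast sum as a covariate 0 of 37 members were called for angII against ctrl, 5 were higher and 5 lower at an unadjusted p under 0.05, and the median was 0.02. The log2 differences were then 0.85 for Mfap4, 1.46 for Cthrc1 and 0.82 for Mfap5. With the macrophage sum, a covariate added after the data had been seen, 0 were called and 6 were higher and 1 lower at an unadjusted p under 0.05, with a median of 0.43. Against ctrl the angII+VEGFC group then had 1 member called with the fibroblast covariate, Ltbp4, with a log2 difference of -1.36, and 0 with the macrophage covariate. Other settings gave more calls for angII against ctrl and for angII+VEGFC against ctrl, with 18 and 21 when the number of detected genes was a covariate and 14 and 19 with a surrogate variable. The shares of all genes called under these settings are not given.

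In the heart LECs angII raised Ogn, a small leucine-rich proteoglycan of fibrous tissue. It was the 1 member of 37 called, beside 0.0261% of all genes. Ogn had 0.0757, 0.412, 0.872 and 2.30 TPM in the ctrl libraries, 8.94, 9.68, 12.1, 12.9 and 21.4 TPM in the angII libraries and 6.51, 7.49 and 7.62 TPM in the angII+VEGFC libraries. The 3 groups did not overlap, with ctrl lowest and angII highest. Of all genes, 2.13% had angII above ctrl without overlap, 1.82% angII+VEGFC above ctrl and 7.33% angII+VEGFC below angII. The log2 difference of angII from ctrl was 2.95 (SE 0.46, adjusted p = 0.0293), and within the sequencing sets it was 2.55 in the first and 3.26 in the second. Its neighbours Aspn and Omd had log2 differences of 1.72 and 0.80, with Aspn at 0, 0.101, 10.7 and 13.3 TPM in ctrl and 6.33, 12.6, 13.8, 14.3 and 22.8 TPM under angII. The heart LEC levels of Ogn lay below those of the cardiomyocyte preparations, where the lowest library had 50.1 TPM.

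The call of Ogn did not hold throughout. Its adjusted p was 0.1 with a pseudocount of 0.1, 0.0685 without the filter, 0.107 with quantile normalization, 0.253 with the number of detected genes as a covariate, 0.119 with the 2 groups alone, 0.501 with the fibroblast sum as a covariate and 0.49 with the blood endothelial sum, which was added after the data had been seen. The count was 0 without any of ctrl mice 5, 9 and 11 and angII mice 3, 15, 18 and 14, and 3 without angII mouse 12, namely Ogn, Sparc and Sparcl1. The fibroblast marker sum was 47.0 to 114 TPM in the ctrl, 106 to 187 TPM in the angII and 89.2 to 169 TPM in the angII+VEGFC heart LECs. The blood endothelial sum was higher in every angII library than in every ctrl library, so the fit with it cannot reliably separate it from treatment.

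At an unadjusted p under 0.05, 12 members were higher under angII in the heart LECs and 4 lower, beside 8.94% and 1.93% of all genes, and the medians were 0.50 for members and 0.23 for all genes. Ogn, Fbln2 and Thbs1 did not overlap between the groups, as 2.13% of all genes did not in this direction. Fbln2, a basement membrane fibulin, had 95.5, 151, 154 and 166 TPM in ctrl and 229.9, 251, 289, 294 and 322 TPM under angII, with a log2 difference of 0.99 (SE 0.22, adjusted p = 0.157). Sparc had 293, 373, 517 and 733 TPM in ctrl, 660.3, 1067, 1288, 1680.3 and 1901 TPM under angII and 388, 407 and 751 TPM in angII+VEGFC, and the ctrl and angII libraries overlapped by 1 library each. Its log2 difference of angII from ctrl was 1.40 (SE 0.29, adjusted p = 0.121). Within the first and second sequencing set the differences were 1.25 and 0.70 for Fbln2 and 0.93 and 2.01 for Sparc. Sparcl1 had 33.9, 56.7, 117 and 187 TPM in ctrl and 137, 189, 373, 463 and 621 TPM under angII, with a log2 difference of 1.80 (SE 0.44, adjusted p = 0.176). Sparc and Sparcl1 were the members highest in BECs, and the 6 blood endothelial markers summed to 1731 to 3428 TPM in the ctrl, 3475 to 8635 TPM in the angII and 2305 to 2703 TPM in the angII+VEGFC heart LECs, with none at 0. With this sum as a covariate the log2 difference of Sparc was 0.27 and that of Fbln2 1.18, and 8 members were higher and 1 lower at an unadjusted p under 0.05. The ctrl and angII libraries did not overlap in this sum, so the fit cannot reliably separate it from treatment. The part of blood endothelial cells was not tested, and the share of all genes at that threshold in this fit is not given.

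The 4 members with the opposite sign at that threshold were Mfap2 (-0.73), Ltbp1 (-0.59), Postn (-0.78) and Dcn (-0.53). Mfap2 had 128, 134, 166 and 208 TPM in ctrl and 57.9, 94.8, 112, 128 and 142 TPM under angII. Ltbp1 had 136, 156, 194 and 221 TPM in ctrl and 85.3, 104, 123, 127 and 197 TPM under angII. Postn had 658, 733, 764 and 771 TPM in ctrl and 199.6, 404, 449, 630.5 and 918 TPM under angII, so that the angII libraries spread on both sides of the ctrl libraries. Dcn had 795, 1176, 1216 and 1283 TPM in ctrl and 560.0, 672, 695, 929 and 1308 TPM under angII, and the groups overlapped for each of the 4.

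**Figure D4:**
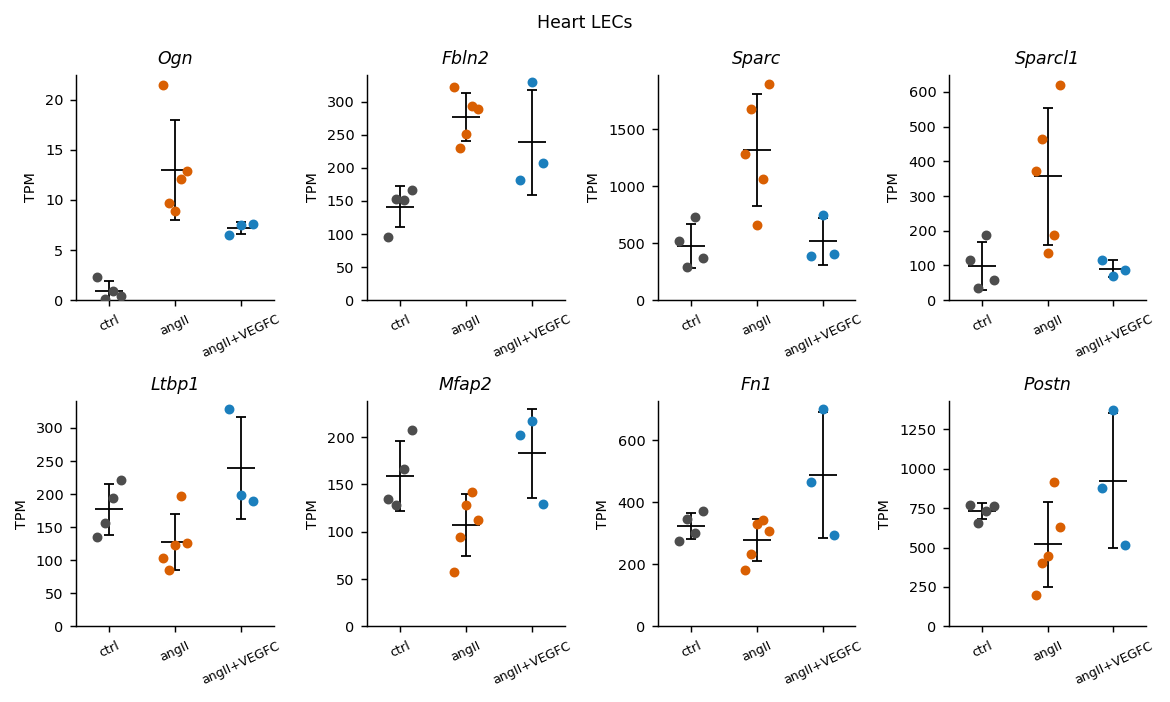
TPM of 8 members in the heart LECs by treatment. Each point is a library, and the bars give the mean and SD of 4 ctrl, 5 angII and 3 angII+VEGFC libraries. Ogn and Fbln2 separate ctrl from angII, Sparc and Sparcl1 are higher in most angII libraries than in the other groups, and Ltbp1, Mfap2, Fn1 and Postn overlap between ctrl and angII.

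Between angII+VEGFC and angII in the heart LECs 0 of 37 members were called by limma, beside 0% of all genes. At an unadjusted p under 0.05, 4 members were higher and 3 lower, beside 1.09% and 9.75% of all genes, and the medians were -0.17 for members and -0.37 for all genes. The 4 were Ltbp1 (1.13, SE 0.25, adjusted p = 0.413), Mfap2 (1.11, SE 0.25, adjusted p = 0.413), Fn1 (0.94, SE 0.27, adjusted p = 0.413) and Postn (1.18). Ltbp1 had 190.2, 199 and 329 TPM in the 3 angII+VEGFC libraries, Mfap2 129, 202 and 217 TPM and Fn1 296, 464 and 700.2 TPM, against 182, 234, 306, 329 and 341 TPM for Fn1 under angII. Each overlapped with the angII libraries. Within the sequencing sets the difference of Ltbp1 was 0.76 and 0.94 and that of Fn1 1.40 and 0.39, with 1 angII+VEGFC library in the first set. The 3 lower members were Sparc (-1.19), Sparcl1 (-1.47) and Lum (-1.15). Lum, a proteoglycan of collagen fibrils, had 19.6, 23.8 and 29.5 TPM against 36.5, 48.3, 58.5, 75.7 and 88.7 TPM under angII, without overlap. In this direction 3 of 37 members did not overlap, Lum, Ogn and Sparcl1, and neither did 7.33% of all genes. The genes at 1 TPM or more numbered 19957 to 25896 under angII and 16756 to 18884 in angII+VEGFC, and with this number as a covariate the differences were 0.99 for Ltbp1, 1.09 for Mfap2 and 0.76 for Fn1.

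Between angII+VEGFC and ctrl in the heart LECs 0 members were called, as 0% of all genes, and 8 were higher and 0 lower at an unadjusted p under 0.05, beside 1.73% and 3.22% of all genes. The 3 smallest p belonged to Ogn (2.23, SE 0.53, adjusted p = 0.915), Mfap5 (2.44, SE 0.81, adjusted p = 0.915) and Fbln2 (0.73, SE 0.25, adjusted p = 0.915). Mfap5 had 0.502, 6.46, 11.6 and 42.6 TPM in ctrl, 38.6, 46.2, 85.8, 97.3 and 151 TPM under angII and 15.4, 50.7 and 68.8 TPM in angII+VEGFC, with overlap between each pair of groups. Its difference between angII+VEGFC and ctrl was 1.44 without ctrl mouse 1, 3.44 without ctrl mouse 5 and 1.82 without angII+VEGFC mouse 6.

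In the heart BECs 0 of 37 members were called between angII and ctrl, as 0% of all genes. At an unadjusted p under 0.05, 6 members were higher and 0 lower, beside 2.57% and 2.83% of all genes. Ltbp2, Thbs4, Spp1, Sparc and Postn did not overlap between the groups, with angII higher, and 0.982% of all genes did not in this direction. Ltbp2, a binding protein of fibrillin microfibrils, had 0, 0.323, 0.370 and 1.02 TPM in ctrl and 2.83, 3.02, 3.04, 3.79 and 3.90 TPM under angII, with a log2 difference of 1.57 (SE 0.38, adjusted p = 0.671). Thrombospondin 4 (Thbs4), a thrombospondin known from the loaded heart, had 0.0400, 0.487, 1.01 and 2.26 and 3.42, 3.96, 5.81, 7.80 and 8.47 TPM, with a log2 difference of 1.76 (SE 0.48, adjusted p = 0.698). Fmod had 0.0902, 0.206, 1.41 and 2.93 and 2.78, 3.84, 4.38, 4.51 and 5.05 TPM, with overlap by 1 library each, and a log2 difference of 1.52 (SE 0.40, adjusted p = 0.697). Sparc had 2868, 2902, 3325 and 3448 TPM in ctrl and 3579.6, 3614, 3993, 4121 and 4201 TPM under angII, and a log2 difference of 0.34 (SE 0.15, adjusted p = 0.914). Within the first and second sequencing set the differences were 1.33 and 1.95 for Ltbp2, 1.27 and 2.66 for Thbs4, and 0.37 and 0.30 for Sparc.

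Between angII+VEGFC and ctrl in the BECs 0 members were called, as 0% of all genes, and 10 were higher and 0 lower at an unadjusted p under 0.05, beside 2.49% and 3.02% of all genes. The smallest p was that of Thbs4, with 3.15, 17.0 and 20.5 TPM in the 3 libraries and a log2 difference of 2.90 (SE 0.56, adjusted p = 0.439). Ltbp2 had 1.11, 6.52 and 7.01 TPM and a difference of 1.96 (SE 0.44, adjusted p = 0.594), and Postn 24.5, 116 and 133 TPM and 1.54 (SE 0.46, adjusted p = 0.798). Without angII+VEGFC mouse 6 the difference of Thbs4 was 2.31, and that of Postn was 0.73 without mouse 2 and 2.16 without mouse 8, whose library had the lowest value of its group for 27 of 37 members. The library of mouse 2 had the highest value of the group for 25 of 37 members. Its fibroblast sum was 557 TPM, against 269 TPM for mouse 6 and 174 TPM for mouse 8. Between angII+VEGFC and angII 0 members were called (0% of all genes) and 0 had an unadjusted p under 0.05 (2.59% of all genes). The 95% interval was -0.10 to 2.38 for Thbs4, -0.19 to 1.02 for elastin (Eln) and -0.35 to 1.69 for Postn.

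In the diaphragm LECs 0 of 37 members were called by limma in any contrast, and neither was any other gene (0% for angII against ctrl, 0% for angII+VEGFC against angII and 0% against ctrl). The paper, with DESeq2 and surrogate variables, reported significant changes of expression under angiotensin II in every population, this one among them. That model takes counts and was not refitted to the TPM used here. An unadjusted p under 0.05 was reached by 3 members for angII against ctrl, 1 for angII+VEGFC against angII and 0 for angII+VEGFC against ctrl, beside 15.3%, 8.78% and 1.32% of all genes. The 3 were versican (Vcan), a large chondroitin sulfate proteoglycan, Fbln1 and Mfap5. Vcan had 0.397, 1.46, 3.58 and 4.88 TPM in ctrl and 3.60, 7.00, 7.51, 8.14 and 16.2 TPM under angII, with a log2 difference of 1.46 (SE 0.53, adjusted p = 0.299), which was -0.31 with the number of detected genes as a covariate. With 1 library left out the number at that threshold was 12 without ctrl mouse 9, all higher under angII, 9 without angII mouse 14, 5 without angII mouse 3 or 15, and 1 without ctrl mouse 1. The share of all genes at that threshold was not computed for these fits. Whether the members moved apart from all genes in them is therefore unknown. The differences were 1.25 for Fbln1 and 1.26 for Mfap5, and with 1 library left out 0.80 to 2.07 and 0.85 to 1.84, each highest without ctrl mouse 9. Emilin1, a protein of lymphatic anchoring filaments, differed by 0.50 (SE 0.23, adjusted p = 0.567) between angII+VEGFC and angII. The next smallest p were those of Sparcl1 (-1.14) and Mfap4 (-1.75) in this contrast, and of Mfap5 (0.97), Emilin1 (0.33) and Thbs4 (95% interval -2.66 to 0.66) against ctrl, where that of Mfap5 was 1.83 without ctrl mouse 5. Ogn, which passed in the heart LECs, had 2.72, 3.30, 7.05 and 41.5 TPM in ctrl and 2.17, 11.2, 11.8, 12.8 and 41.0 TPM under angII here, with a log2 difference of 0.55 (SE 0.63, adjusted p = 0.665).

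Whether the endothelial populations differed in their response was tested by an interaction of population and treatment, and 0 of 37 members were called in any of the 4 interactions. For angII against ctrl, heart LECs against BECs gave 8 members at an unadjusted p under 0.05, where all genes gave 7.19%, with 0% called, and heart against diaphragm LECs gave 5, where all genes gave 9.70%, with 0.00611% called. For angII+VEGFC against angII the counts were 4 beside 6.43% of all genes for BECs, with 0% called, and 0 beside 4.88% for diaphragm LECs, with 0% called. Between heart LECs and BECs the log2 difference of responses to angII was 3.25 (SE 1.05, adjusted p = 0.503) for Ogn and -1.60 (SE 0.53, adjusted p = 0.509) for Postn. Between heart and diaphragm LECs it was 0.93 (SE 0.28, adjusted p = 0.294) for Fbln2 and 0.77 (SE 0.25, adjusted p = 0.353) for Fbln5. For angII+VEGFC against angII the smallest p were those of Sparcl1 (-1.79) and Sparc (-1.46) against BECs, and of Ltbp2 (-1.55) and Fn1 (0.63) against diaphragm LECs.

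**Figure D5:**
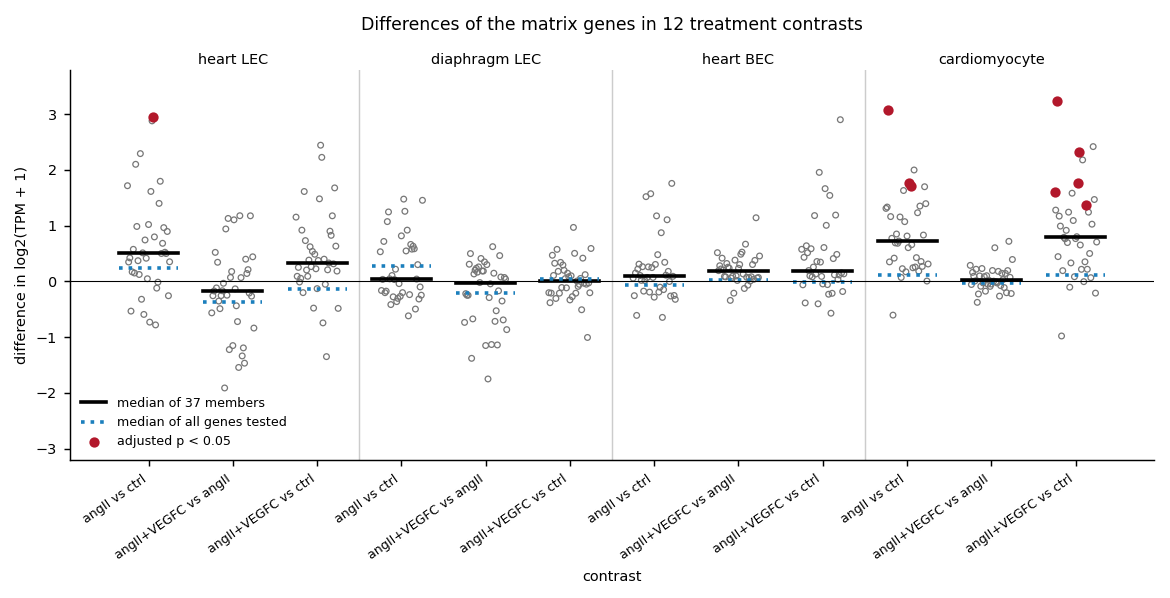
Difference in log2(TPM + 1) of the 37 tested members in the 12 treatment contrasts. Each circle is a gene, red points have an adjusted p below 0.05, the black line is the median of the members and the dotted blue line that of all genes tested. The distance between the lines is widest for angII and angII+VEGFC against ctrl in the cardiomyocyte preparations, where the member medians are 0.72 and 0.79 and those of all genes 0.12 and 0.11.

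A list of 50 other matrix glycoproteins and proteoglycans gave the setting of these members. In the cardiomyocyte preparations 0 of its 46 tested genes were called for angII against ctrl, with 18 higher and 1 lower at an unadjusted p under 0.05, and 3 were called for angII+VEGFC against ctrl, Svep1 (1.45, adjusted p = 0.0309), Srpx2 (1.81, adjusted p = 0.0321) and Mgp (1.09, adjusted p = 0.0424). The smallest p for angII were those of Srpx2 (1.39, adjusted p = 0.0812) and Igfbp7 (1.34, adjusted p = 0.115). In the heart LECs 0 of 46 were called for angII against ctrl, with 16 higher and 0 lower at an unadjusted p under 0.05, led by Pcolce, the procollagen C-proteinase enhancer (2.79, adjusted p = 0.0884), and Prg4, lubricin (2.85, adjusted p = 0.114). In the BECs the smallest p were those of Igfbp7 (0.58, adjusted p = 0.671) and Cilp (2.67, adjusted p = 0.671) among 45. In the diaphragm LECs they were those of Frem1 (2.29, adjusted p = 0.297) and Esm1 (1.82, adjusted p = 0.297) among 46. For angII+VEGFC against angII 0 genes of this list were called in any population.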

How the data were processed

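RNA had been prepared with an ultra-low-input kit that does not mark the strand, so antisense and overlapping genes cannot be separated. The authors aligned reads to GRCm38 with STAR (2.5.3a), quantified them with Salmon (0.12.0) against Ensembl release 95, and deposited TPM per gene. The total count behind a TPM value is unknown, so no counting error is given. Endothelial libraries were sequenced in 2 sets and cardiomyocytes in a set of their own, and 0 value columns were left unmapped.

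Symbols were matched by Ensembl ID. Within each population, log2(TPM + 1) was fitted with limma (3.58.1, R 4.3.3) on treatment, age and sequencing set, over genes that reached 1 TPM in 3 libraries or more, with Benjamini-Hochberg adjustment over all of them (called at 0.05). Differences on this scale understate changes of low genes. Populations were compared on treatment, age and population, with the sequencing set added where both populations were endothelial. No library lay over 3 SD from the mean on the first 2 principal components. In data simulated with 200 genes changed by 3 on the log2 scale, 193 were recovered for the heart LECs and 200 for the cardiomyocytes, with 10 and 7 false calls. The changed genes were drawn from those with a ctrl mean of log2(TPM + 1) above 3, so this recovery does not cover lower genes. Fits with other pseudocounts, filters, scalings and covariates, and without each library, were run as well.

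Libraries with the same mouse number come from 1 animal. Their deviations from the group means correlated with a median r of 0.085 for heart LECs and BECs (12 mice), 0.056 for heart and diaphragm LECs (11 mice) and 0.120 for cardiomyocytes and BECs (12 mice). Mice of 1 group are separate animals, 13 in all, and the labels and the study's methods differ on their age, so the age in the labels was used.

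The 38 members, the marker lists and the list of other matrix genes were chosen with earlier results of these data known. The text names the 5 highest members of a population, members called in a treatment contrast or, below 3 calls, the 3 with the smallest p, the 4 largest called differences in each direction between populations, and the 2 smallest p of an interaction and of the other matrix genes. Further members were chosen after their values were seen. Promoters came from RefSeq (GRCm38.p6), whose table held 27 of the 38.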

Additional observations from a re-analysis of the deposited data

How the results depend on the processing

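The count of members called for angII against ctrl in the heart LECs, 1, was 0 with a pseudocount of 0.1, without the filter, with quantile normalization, with detected genes, fibroblast or blood endothelial markers as a covariate, and with 2 groups only, and 0 to 3 with 1 library left out. For angII against ctrl in the cardiomyocytes, 3, it was 0 without the filter and with the fibroblast or macrophage covariate, 5 with quantile normalization, 14 with 1 surrogate variable, 17 with 2 groups only, 18 with detected genes as a covariate, and 0 to 2 with 1 library left out. For angII+VEGFC against ctrl, 5, it was 0 without the filter, with the macrophage covariate and with 2 groups only, 1 with the fibroblast covariate, 10 with quantile normalization, 19 with 1 surrogate variable, 21 with detected genes as a covariate, and 0 to 22 with 1 library left out. The cause was not tested. These counts and those of the other fits below are of members alone, without the share of all genes called in the same fits. Heart LECs against BECs gave 14 in ctrl libraries only, against 23, and heart against diaphragm LECs 6 in ctrl only and 9 with the fibroblast covariate, against 14. The difference of Vcan in diaphragm LECs was -0.31 with detected genes as a covariate, and in BECs, angII+VEGFC against angII, that of Eln was -0.034 to 0.67 and that of Postn -0.22 to 1.18 with 1 library left out. Pairing libraries by mouse (a replicate block) gave 24, 14 and 33 members called in the 3 population comparisons, against 23, 14 and 31, and 0 in the interactions. Treatment groups hold different mice, so they could not be paired. The other treatment contrasts and the interactions gave 0 members under every alternative run. Without the 3 BEC libraries of high fibroblast sum, 23 members were called between heart LECs and BECs and 32 between cardiomyocytes and BECs. This setting and the macrophage and blood endothelial covariates were added after seeing the data. The depth behind low TPM values is unknown. Differences below 3 on the log2 scale, and changes of low genes, were not simulated, so how many such differences these groups could show was not tested.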
